A study of Mus musculus with 6 samples.

Results

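Sperm ion transport genes were read in whole testis of Gipr-/- and Gipr+/+ mice through 10 genes: the CatSper channel genes Catsper1, Catsper2, Catsper3, Catsper4 and Catsperb, the sodium-proton exchanger gene Slc9c1 (named Slc9a10 on the array), the potassium channel genes Kcnu1 and Lrrc52, the sodium pump gene Atp1a4 and the proton channel gene Hvcn1. They were taken by gene name and not by any measured value, though with earlier results of these data known. They make up 10 of 34787 gene names and are covered by 17 of the 55681 non-control probes. Gipr encodes the receptor for the gut hormone GIP, which signals through cAMP. The knockout group held 3 C57BL/6 mice labelled GIPR KO and the control group 3 C57BL/6 mice labelled wild type, all 8 weeks old and each read on 1 single-colour Agilent array. The deleted part of Gipr, and the cells in which it was deleted, are not given in the sources used here. RNA came from the whole organ, so fewer cells of a type and less RNA per cell cannot be told apart.

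A sperm cell swims vigorously enough to reach and enter an egg only after calcium flows into its tail through CatSper, a sperm-specific channel. CatSper opens when the inside of the cell turns alkaline and its membrane potential shifts, so proton export, potassium outflow through SLO3 (the product of Kcnu1) and the sodium gradient kept by a sperm-specific pump all bear on it. Most of these genes are transcribed mainly in the germ line, from meiosis into the haploid spermatids, well before the sperm can use the proteins.

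The arrays reported each gene through 60-base probes, and 5 of these sequences are shown because the results below turn on what they read. Letters are lower case, except that capitals in the Catsper3 probes mark the longest run both share.
Catsper1 probe A_52_P1087486: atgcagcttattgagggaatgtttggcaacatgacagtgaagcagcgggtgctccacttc
Catsper3 probe A_55_P1969962: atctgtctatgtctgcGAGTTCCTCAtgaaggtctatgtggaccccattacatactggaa
Catsper3 probe A_66_P125729: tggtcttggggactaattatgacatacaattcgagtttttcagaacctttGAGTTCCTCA
Catsperb probe A_55_P2060249: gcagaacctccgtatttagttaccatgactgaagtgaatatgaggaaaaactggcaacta
Lrrc52 probe A_52_P529660: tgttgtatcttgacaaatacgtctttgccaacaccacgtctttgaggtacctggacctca
On mouse build mm9, per the files, the Catsper1 probe covers chromosome 19 from 5341470 to 5343899, so its 60 bases are spread over 2430 bases of genome and cross at least 1 intron. Catsper3 probe A_66_P125729 likewise spans chromosome 13 from 55887828 to 55900150, whereas A_55_P1969962 lies unbroken at 55900125 to 55900184. The longest run the Catsper3 probes share is 10 bases, the last 10 of A_66_P125729. Just before this run, A_55_P1969962 reads the adjoining genome, while A_66_P125729 reads bases from across an intron. There the probes match differently spliced forms of the message. The share of each form in their signals was not tested. The Catsperb probe lies on chromosome 12 at 102860471 to 102860530 and the Lrrc52 probe on the minus strand of chromosome 1 at 169396374 to 169396433.

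The tissue and the labels were checked first. The Gipr probe read -2.35, -2.31 and -2.12 in knockout replicates 1 to 3 and 0.08, 0.14 and 0.44 in the wild-type ones, as log2 signal relative to each array's 75th percentile, the scale used for all values below. All 12 markers of elongating spermatids and all 10 of round spermatids were well above background on every array, as Feature Extraction defines it. Of the 7 epididymis markers, 3 (Defb48, Rnase10 and Adam7) were measured well enough to test, and Lcn5, Lcn8, Lcn9 and Crisp1 were not. As a sum, the 3 tested ones read 0.83 to 0.96 in the knockout and 0.74 to 0.93 in the wild type. The source of their signal was not tested. Across all non-control spots, 70.6% to 76.0% were well above background and 0 were saturated. The number of arrays, 3 per genotype, limits the precision. The genotypes sat in different rows of 1 slide, so a row effect and the genotype cannot be told apart.

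Expression of the sperm ion transport genes showed no difference between genotypes that passed correction over all probes. Of the 17 probes, 16 were well above background in all 3 arrays of a genotype and were tested. At an adjusted p under 0.05, limma called 0 of these 16, where it called 18 of 38884 tested probes (0.0463%), 16 lower (0.0411%) and 2 higher (0.00514%) in the knockout. With quantile normalization that split was 16 lower and 0 higher, and with normexp background correction 23 and 7. At an unadjusted p under 0.05 it called 1 of the 16, the Lrrc52 probe, against 7.66% of all tested probes (3.25% lower and 4.41% higher). The differences ran from -0.27 to 0.12 on the log2 scale, with a median size of 0.095 against 0.088 over all tested probes. Every 95% interval of the 16 lay within 0.5 log2 units of 0, so a change of 1.41-fold or more in either direction falls outside each of them.

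**Figure D1:**
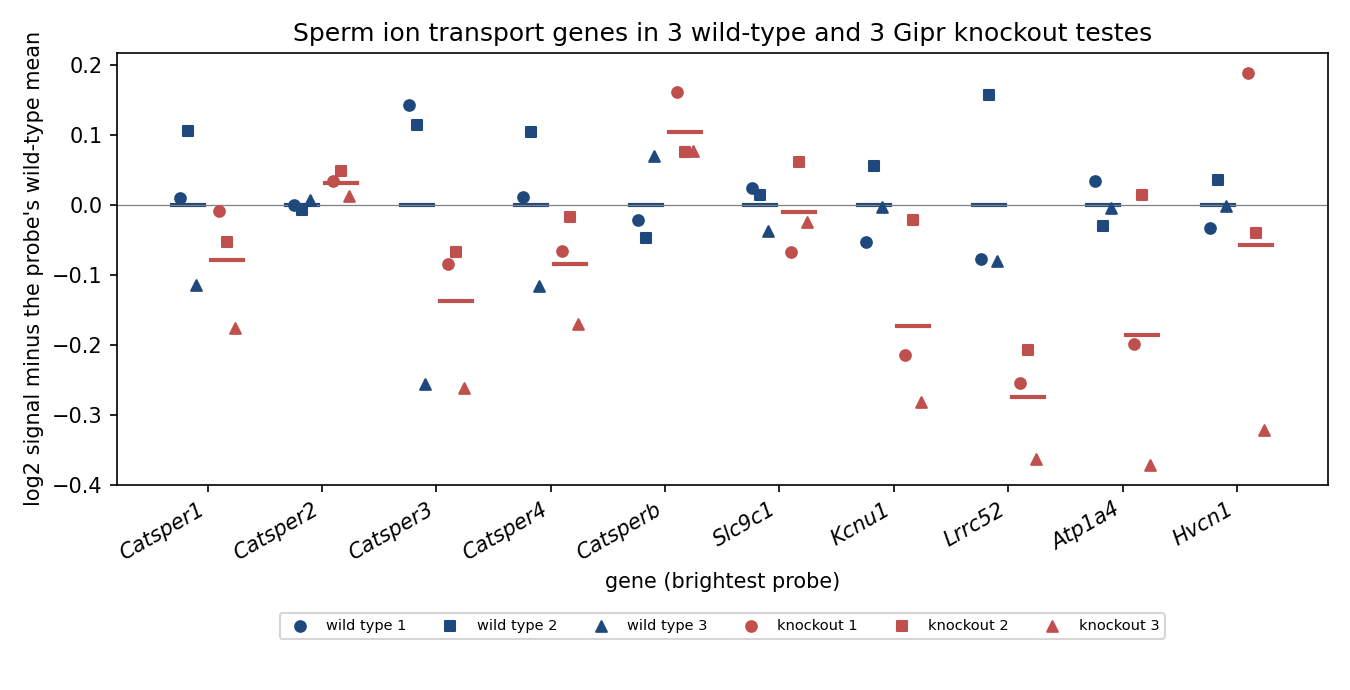
Log2 signal of each gene's brightest probe, minus that probe's wild-type mean, in the 3 wild-type (blue) and 3 knockout (red) arrays, with bars at the group means and a marker shape per replicate number. For Lrrc52 all 3 knockout points lie under the wild-type points, and knockout replicate 3 is the lowest of the 6 arrays for 7 of the 10 genes.

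The genes of the CatSper pore, whose products line the calcium path, went both ways by small amounts. Catsper1 read 4.06, 4.01 and 3.89 in knockout replicates 1 to 3 and 4.08, 4.17 and 3.95 in the wild-type replicates. The genotypes overlapped, and the difference of -0.079 ± 0.084 (SE) was smaller than its error (limma adjusted p = 0.797). Catsper4 read 4.56, 4.61 and 4.46 in the knockout and 4.64, 4.73 and 4.51 in the wild type. This followed the Catsper1 pattern closely, with wild-type replicate 2 highest and knockout replicate 3 lowest, and a difference of -0.084 ± 0.082 (limma adjusted p = 0.780). A second Catsper4 probe, A_55_P2050897, was well above background on only 2 of 3 arrays of each genotype and was not tested.

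Catsper2, another pore gene, varied little from animal to animal at probe A_55_P2007771, with an SD of 0.018 among knockout and 0.0074 among wild-type arrays. Probe A_55_P2007771 read 4.90, 4.91 and 4.88 in the knockout and 4.87, 4.86 and 4.87 in the wild type. The groups did not overlap, yet they lay only 0.032 ± 0.054 apart (limma adjusted p = 0.876). That SE is limma's moderated one, which also draws on the spread of all tested probes. It is larger than the SDs of A_55_P2007771 alone would give. The other Catsper2 probe, A_55_P2007776, which lies further downstream on the transcript strand, read 0.31, 0.18 and 0.28 against 0.06, 0.07 and 0.29, and there the genotypes did overlap.

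Catsper3, also a pore gene, varied more between animals of 1 genotype than between genotypes. The unbroken probe printed above read 1.01, 1.03 and 0.83 in the knockout and 1.24, 1.21 and 0.84 in the wild type. Wild-type replicate 3 stood with knockout replicate 3 at the bottom, apart from the other wild-type arrays, and the difference was -0.14 ± 0.13 (SE; limma adjusted p = 0.766). The intron-spanning probe showed the same low wild-type array, reading 0.06, 0.05 and -0.04 against 0.21, 0.21 and -0.10. The Catsper3 probes thus differed between genotypes by -0.14 and -0.086, and the variation among wild-type animals appeared in both.

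Catsperb encodes a large auxiliary subunit whose extracellular part helps form the canopy over the pore. Its message was slightly higher in every knockout animal at both probes, which lie in separate stretches of the transcript and share no run longer than 6 bases. Probe A_55_P2060249 read 1.81, 1.72 and 1.72 in the knockout and 1.62, 1.60 and 1.71 in the wild type. Probe A_55_P2131300 read 0.21, 0.26 and 0.30 against 0.20, 0.05 and 0.19. The groups did not overlap at either probe, but at each probe the highest wild-type value lay just under the lowest knockout value. The differences were 0.105 ± 0.064 and 0.110 ± 0.069 (SE; limma adjusted p = 0.693 and 0.696). In all, 4 of the 16 tested probes had groups that did not overlap, at Catsper2, Catsperb and Lrrc52, against 13.4% of all tested probes (5.49% lower and 7.87% higher), and probes of 1 gene are not independent.

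**Figure D2:**
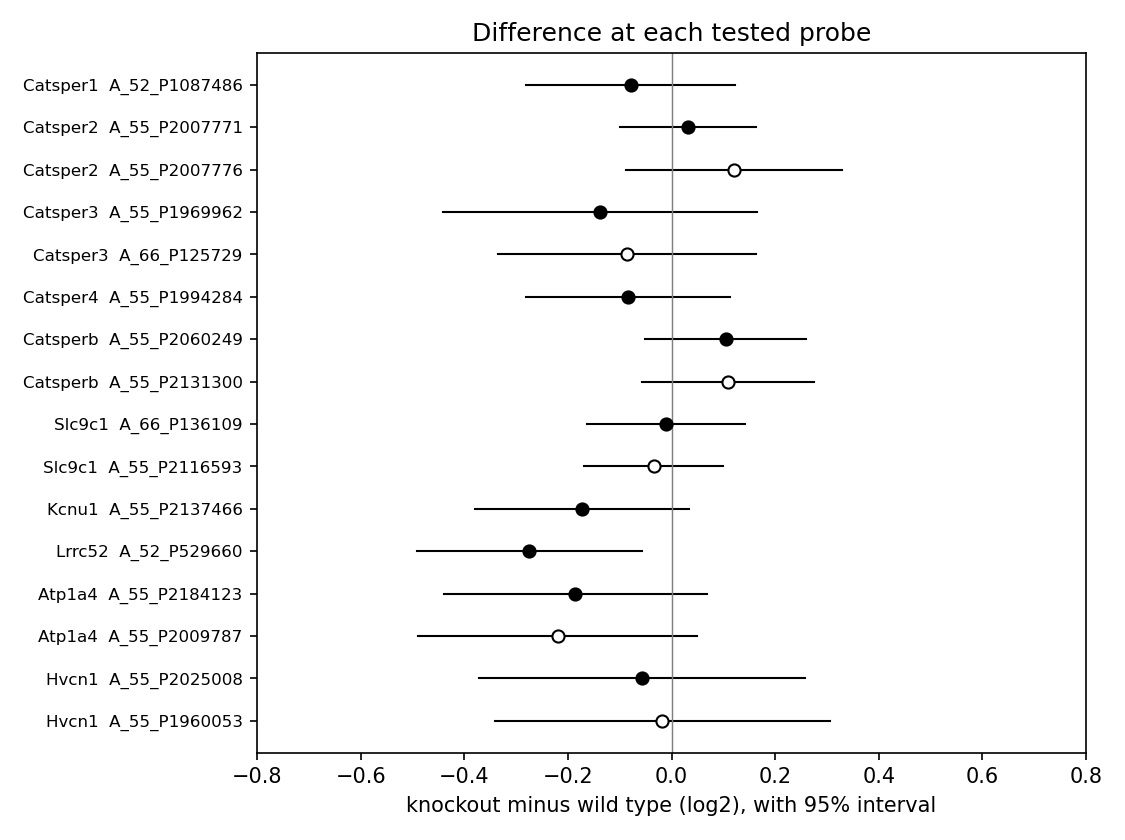
Knockout minus wild-type difference (log2, points) with its 95% interval from limma (lines) at each of the 16 tested probes, filled for the brightest probe of a gene and open for the other. Only the Lrrc52 interval, from -0.49 to -0.06, leaves out 0.

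Slc9c1, the sperm sodium-proton exchanger that alkalinises the cell and is needed for soluble adenylyl cyclase activity, hardly differed. Its brightest probe read 3.44, 3.57 and 3.49 in the knockout and 3.53, 3.52 and 3.47 in the wild type. The second probe was tighter still, at 2.18, 2.20 and 2.18 against 2.20, 2.21 and 2.26. The differences of -0.010 ± 0.063 and -0.034 ± 0.055 (SE) carried limma adjusted p of 0.970 and 0.868, and the sign of the first turned in 3 of 17 alternatives, reading 0.019 without knockout replicate 1 and 0.0020 without wild-type replicate 1. Hvcn1, a voltage-gated proton channel that leukocytes also use, had the largest errors of the 10 genes. Its brightest probe read -2.16, -2.39 and -2.67 in the knockout and -2.38, -2.31 and -2.35 in the wild type. The knockout animals thus bracketed the wild-type ones, and the difference was -0.057 ± 0.13 (limma adjusted p = 0.908), turning to 0.074 without knockout replicate 3. A second probe, which shares 38 bases with the first, read -2.71, -2.95 and -3.14 against -3.10, -2.81 and -2.83. Of the 10 tested markers of macrophages and neutrophils, 7 were lower in the knockout, with a summed level of 5.08 to 5.33 in the knockout and 5.08 to 5.23 in the wild type. With each marker centred on its 6-array mean, the list's median was highest in wild-type replicate 1 (0.248) and lowest in knockout replicate 3 (-0.285), where Hvcn1 was also lowest, whereas Hvcn1 and the summed level were highest in knockout replicate 1. The part of leukocytes in the Hvcn1 values was not tested.

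The SLO3 potassium channel, which sets the membrane potential of mouse sperm, held the largest difference of the 10 genes. Its auxiliary subunit gene Lrrc52, whose product eases opening of the channel, read -0.20, -0.15 and -0.31 in the knockout and -0.02, 0.21 and -0.02 in the wild type. All 3 knockout arrays lay below all 3 wild-type arrays, with wild-type replicate 2 well above the rest. The difference of -0.27 ± 0.09 (SE; 95% interval -0.49 to -0.06) had a limma unadjusted p of 0.0211 and did not pass over all probes (adjusted p = 0.634). It kept its direction in 17 of 17 alternatives, from -0.32 to -0.20, and passed in 0 of them. Kcnu1, the pore gene of the same channel, read 1.60, 1.80 and 1.54 in the knockout and 1.77, 1.87 and 1.82 in the wild type. Knockout replicate 2 lay within the wild-type range, and the difference was -0.17 ± 0.085 (limma adjusted p = 0.658). An exact permutation test of a single probe with 3 arrays against 3 cannot go below p = 0.1.

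Atp1a4, the sodium pump catalytic subunit of the sperm tail, was low in knockout replicates 1 and 3 but not in replicate 2. Its brightest probe read 6.65, 6.87 and 6.48 in the knockout and 6.89, 6.82 and 6.85 in the wild type. The wild-type animals were close together, while the knockout animals spread from the lowest array up into the wild-type range. The difference was -0.19 ± 0.10 (SE; limma adjusted p = 0.681), -0.092 without knockout replicate 3 and -0.29 without knockout replicate 2. The second probe shares 54 of its 60 bases with the first and read almost the same, so it is no independent measurement.

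Across the 10 genes, taking the brightest probe of each, 8 were lower and 2 higher in the knockout, where 47.2% of all tested probes were lower and 52.8% higher. The median difference was -0.082, against 0.0086 over all tested probes. It was -0.036 without knockout replicate 3 or wild-type replicate 2, and -0.13 and -0.14 without knockout replicate 1 or wild-type replicate 3. The count of probes at an unadjusted p under 0.05 moved too, though partly with other arrays. It went to 0 without knockout replicate 3 or wild-type replicate 2. It went to 4 without knockout replicate 2 or wild-type replicate 3. Over all tested probes the share at that p moved in the same direction, to 5.80% and 5.15% in the first 2 of these fits and to 13.9% and 10.03% in the other 2. Without knockout replicate 1 or wild-type replicate 1 the count stayed at 1, with shares of 5.16% and 5.91%. With each gene centred on its 6-array mean, the median gene stood at -0.019, 0.024 and -0.164 in knockout replicates 1 to 3 and at 0.042, 0.103 and 0.0041 in the wild-type replicates. Knockout replicate 2 thus lay inside the wild-type range. Knockout replicate 3 was the lowest of the 6 arrays for 10 of the 16 tested probes, against 25.5% of all tested probes.

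Spermatid markers leaned lower in the knockout as the 10 genes did, and stood low on the same array. Between genotypes, 8 round spermatid markers were lower and 2 higher (median difference -0.092), and 8 elongating spermatid markers were lower and 4 higher (median difference -0.057). Of the meiotic spermatocyte markers, 3 were lower and 7 higher (median difference 0.013). Round spermatid markers had medians of -0.048, 0.034 and -0.123 in the knockout replicates and 0.060, 0.092 and -0.015 in the wild-type replicates, and knockout replicate 3 was lowest for 7 of the 10. Elongating spermatid markers had medians of -0.044, 0.088 and -0.108 against 0.044, 0.032 and -0.013, and knockout replicate 3 was lowest for 12 of 12. Their summed levels ran from 11.56 to 11.76 in the knockout and from 11.67 to 11.72 in the wild type, and those of round spermatids from 7.90 to 8.06 and from 7.97 to 8.16. Meiotic spermatocyte markers did not share this, with a median of -0.0041 in knockout replicate 3, which was lowest for 3 of 10. Sertoli cell markers, in contrast, were 8 higher and 2 lower in the knockout (median difference 0.133). Their summed levels ran from 8.36 to 8.43 in the knockout and from 8.29 to 8.31 in the wild type. They had a median of 0.205 in knockout replicate 3, which was lowest for 0 of 10. Leydig cell markers were 1 higher and 6 lower in the knockout (median difference -0.253). They had a median of -0.462 in knockout replicate 3, which was lowest for 5 of 7. The parts of spermatid, Sertoli and Leydig cell content in the values of the ion transport genes were not tested.

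**Figure D3:**
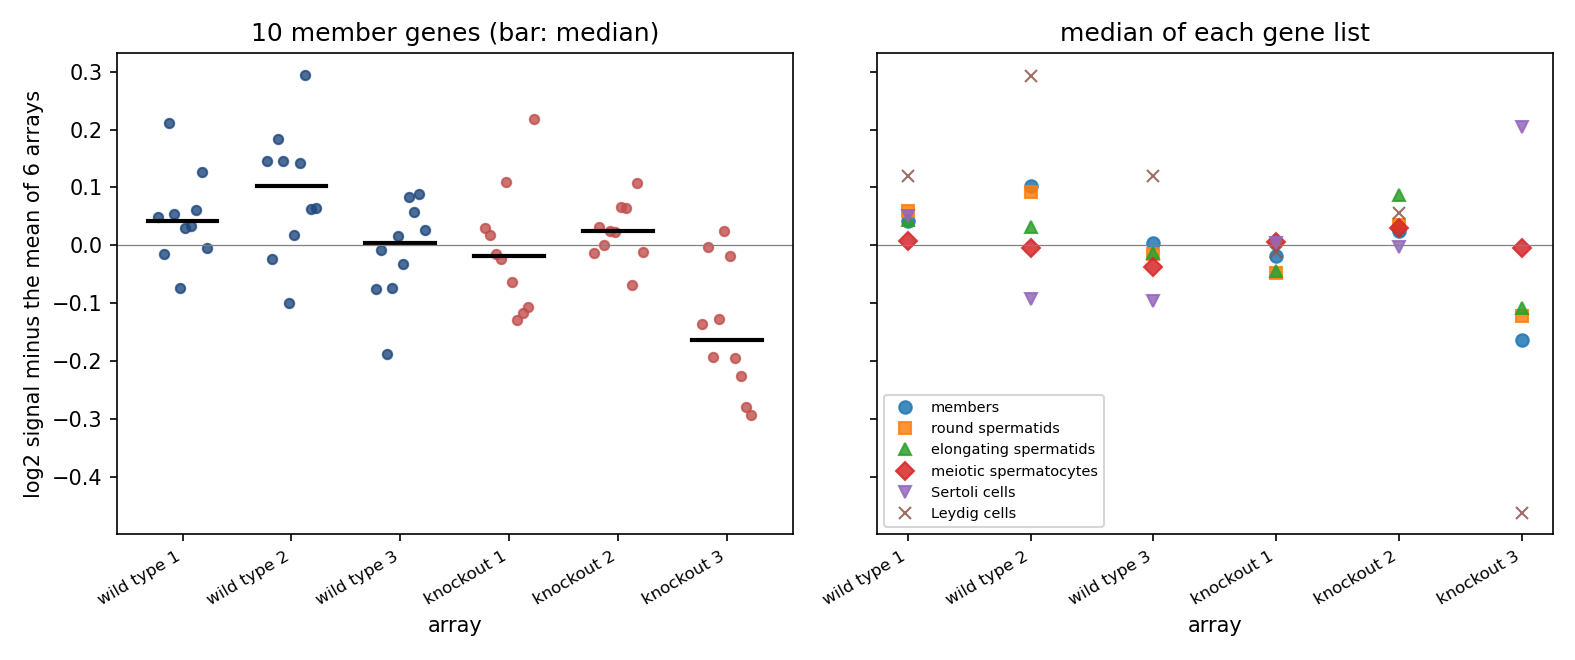
Left, log2 signal of the 10 genes centred on its 6-array mean for each gene, by array, with a bar at the median; right, the median of the same quantity for the 10 genes and for marker lists. In knockout replicate 3 the 10 genes (-0.164), round spermatids (-0.123) and elongating spermatids (-0.108) are low together, while Sertoli markers (0.205) are high.

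Other subunits and partners of CatSper also gave 0 calls, where 0.0463% of all tested probes were called. Of 11 listed genes, 10 were tested, 4 higher and 6 lower, with a median of -0.015. At an unadjusted p under 0.05 there were 0, against 7.66% of all tested probes. The subunit genes Catsperd, Catspere2, Catsperz, Catsperg1 and Catsperg2 read -0.015 ± 0.093, 0.12 ± 0.09, -0.047 ± 0.073, 0.10 ± 0.07 and 0.093 ± 0.081 (log2 difference, SE). The calcium sensor Efcab9, which partners Catsperz, read -0.18 ± 0.10, Tmem262 -0.17 ± 0.09 and Tmem249 -0.14 ± 0.11, and the transporter-like Slco6c1 and the C2-domain gene C2cd6 0.0081 ± 0.055 and -0.016 ± 0.057. Catsperg1 and Catsperg2 are near-identical copies on chromosome 7, and the Catsperg1 probe matches transcripts of both per the files, so their signals are not separate. Catspere1 had no probe under its name. The limma adjusted p of these 10 genes ran upward from 0.672.

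Among 6 further ion transport lists, 1 gene of 83 tested passed, against 0.0463% of all tested probes. Kcnn4, a calcium-activated potassium channel gene, fell by 0.99 ± 0.09 (log2, SE; limma adjusted p = 0.0486). Its call was absent in 10 of 17 alternatives, among them each of the 6 that left out 1 array. The Kcnn4 probe was dim, at -5.39, -5.20 and -5.43 in the knockout and -4.41, -4.40 and -4.25 in the wild type. It lies on chromosome 7 at 25169184 to 25169782, and the Gipr probe lies on that chromosome at 19742486 to 19742545. Whether DNA linked to Gipr plays a part was not tested. The other 9 potassium channel genes gave 6 higher and 3 lower, with the LRRC52 relative Lrrc55 at 0.46 ± 0.16 and the ATP-sensitive channel gene Kcnj11 at 0.31 ± 0.12 (adjusted p = 0.639 each). The Lrrc55 probe was dim too, at -4.93, -4.92 and -5.07 in the knockout and -5.79, -5.30 and -5.22 in the wild type. It was well above background on only 2 of the 3 wild-type arrays and was tested through the knockout, where it read higher. For pH, bicarbonate and anion transport, 6 genes were higher and 10 lower (median -0.076), with the sperm anion exchanger Slc26a8 at 0.13 ± 0.06, the lactate carrier Slc16a7 at -0.17 ± 0.08 and the carbonic anhydrase gene Car2 at -0.23 ± 0.13. Sodium pump subunits other than Atp1a4 gave 6 higher and 5 lower (median 0.014), with the small regulators Fxyd2 at -0.41 ± 0.14 and Fxyd1 at -0.45 ± 0.17 and the beta subunit Atp1b2 at 0.22 ± 0.11.

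Genes for calcium entry, release and extrusion split into 12 higher and 13 lower (median -0.0044). The calcium pump gene Atp2b1 read 0.21 ± 0.09, the egg-activating phospholipase gene Plcz1 -0.18 ± 0.08 and the store sensor Stim1 0.15 ± 0.06 (log2, SE). Water and volume channels gave 4 higher and 7 lower (median -0.047), with Lrrc8e at 0.18 ± 0.08, Aqp9 at 0.15 ± 0.07 and Lrrc8a at 0.096 ± 0.058. Subunits of the vacuolar proton pump, which acidifies the acrosome, gave 5 and 5 (median 0.011), with Atp6v1e2 at -0.16 ± 0.10, Atp6v0a4 at -0.36 ± 0.32 and Atp6v1c1 at 0.063 ± 0.084. None of the genes named in these 5 lists passed in limma, with adjusted p of 0.639 or more.

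**Figure D4:**
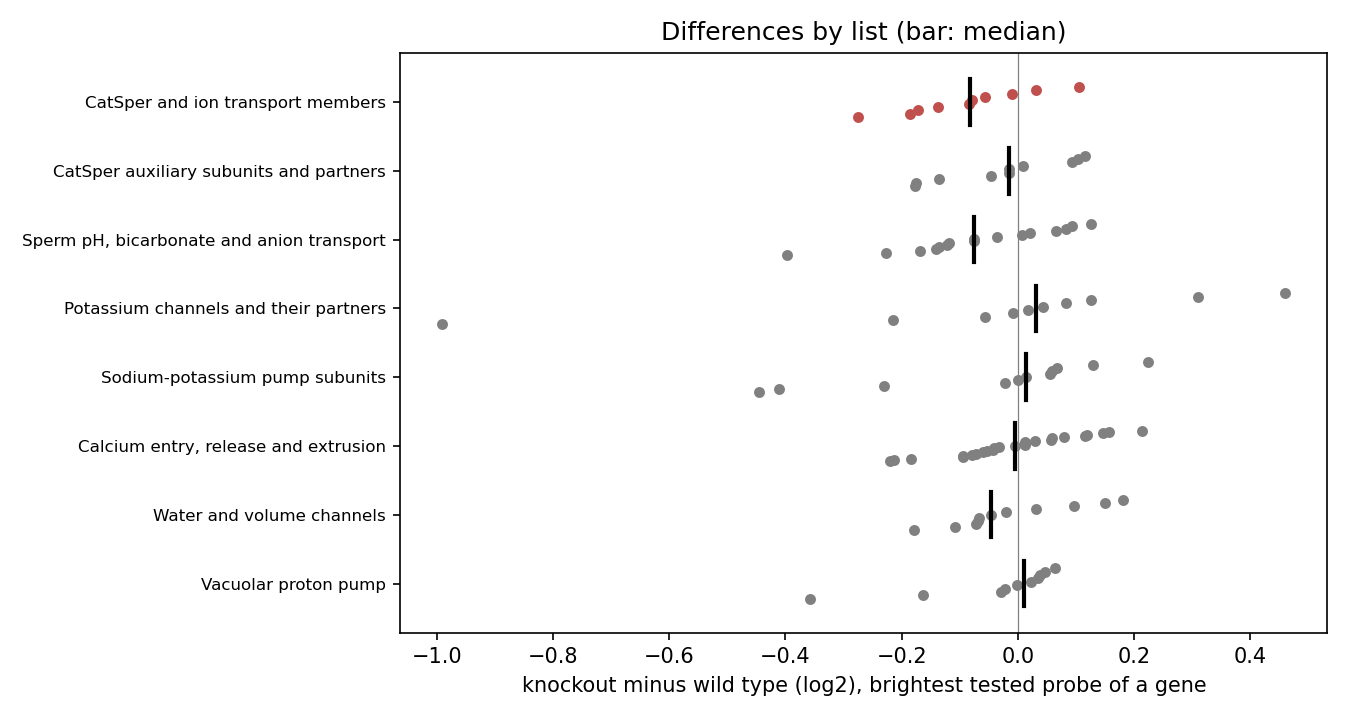
Knockout minus wild-type difference (log2) of each tested gene's brightest probe, 1 row per list, with a bar at the list's median. The 10 sperm ion transport genes (red) have a median of -0.082, and the point at -0.99 is Kcnn4, the only listed gene that passed.

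The promoters of these genes were searched for a few short motifs. RefSeq promoters (GRCm38.p6, 250 bases before to 50 after the start) were matched for 7 of the 10 genes, and Catsper1, Kcnu1 and Hvcn1 had no entry. The cAMP response element TGACGTCA, the site bound by CREB and CREM, occurred in 0 of the 7 and in 1.79% of all 32851 promoters. The shorter TGACG, searched on both strands and contained in the full site, occurred in 1 of the 7 (Catsper2) and in 20.8% of all. TATAAA occurred in 0 of the 7 and in 13.6% of all. These counts describe letters in a fixed window. With 7 promoters they cannot be told apart from the shares over all promoters.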

How the data were processed

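Whole-testis RNA of 6 mice was measured on 6 arrays. Per the labels' protocols, 100 ng of total RNA went into each Cy3 labelling, and per the submitters' processing notes images were read with Agilent Feature Extraction 10.7.3.1. The deposited processed signal is a linear intensity per spot; per the file headers, its spatial and multiplicative detrending were on. The authors' deposited value table holds the same intensity values times 1 factor per array that sets the median to 200 and served as an alternative.

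Its log2 was taken, 117 to 149 outlier spots per array were left out, the spots of a probe were averaged, 13 probes without a spot on some array were dropped, and each array's 75th percentile was subtracted. A probe counted as well above background where a share of at least 0.5 of its spots were. The 38884 probes well above background on all 3 arrays of a genotype were fitted with limma 3.58.1 (R 4.3.3, lmFit and eBayes) in 1 model of 6 arrays with genotype as its sole term, with two-sided p adjusted by Benjamini-Hochberg over all of them. The code of the fit was run on simulated data with known changes. That checked its estimates and not the results reported here. The design text gives 3 mice per genotype, so the spread between arrays of a genotype is that between mice. Each limma SE and p is moderated and also draws on the spread of all tested probes.

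Where a gene has several tested probes, its brightest stands for it. All probes of the 10 genes and all CatSper partners were named, and in the other lists the 3 genes of lowest p. The genes and lists were chosen with earlier results of these data known. Names came from the files, updated through RefSeq (GRCm38.p6); positions are those of the files. Alternatives changed background correction, normalization, values, filter, probe summary, replicate block, array weights, moderation and each array in turn. No set test was run.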

Additional observations from a re-analysis of the deposited data

How the results depend on the processing

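In all 17 alternatives 0 of the ion transport probes passed in limma, and the median difference of the 10 genes stayed below 0, from -0.139 to -0.036 when 1 array was left out. The direction of Catsper1, Catsper2, Catsper3, Catsper4, Catsperb, Kcnu1, Lrrc52 and Atp1a4 held in all 17. Slc9c1 read 0.014 with quantile normalization and -0.046 to 0.019 without 1 array. Hvcn1 read 0.044 with array weights and -0.18 to 0.074 without 1 array. Probes of the 10 genes at an unadjusted p under 0.05 numbered 2 with normexp, 5 with array weights and 3 with trend and robust moderation, and 0 to 4 without 1 array, while the share of all tested probes at that p was 8.51%, 17.9% and 8.41% in those 3 fits against 7.66% as reported.

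Calls over all probes numbered 30 with normexp, 7 without a filter on dim probes, 6 with the replicate block, 29 with array weights, 35 with trend and robust moderation and 5 to 11 without 1 array. The Kcnn4 call ended, leaving 0 called genes in the ion transport lists, with normexp, without the filter, with the replicate block, with trend and robust moderation and in each of the 6 fits without 1 array (0 to 0). The causes were not tested. Deviations of same-numbered arrays correlated at 0.058, -0.024 and -0.0027 across probes, and those of differently numbered arrays at -0.044 to 0.045. These small values cannot show whether replicate numbers pair the mice. The replicate block called 0 of the ion transport probes. Signal over background limited the second Catsper4 probe, which was not well above background on 1 array of each genotype.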
